A study of Macaca mulatta with 15 samples.

Results

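The genes of glycolysis and of the fate of its product pyruvate were followed in blood T cells of 2 rhesus macaques, both healthy. Of 30 genes listed by symbol, 28 have a row under that symbol among the 34884 genes of the count table, and all 28 passed the filter on low counts. PKM, a pyruvate kinase, has no row under its symbol and is not analysed here. GPI, the isomerase that follows hexokinase, has a row only under its identifier (ENSMMUG00000005880), matched through a table of gene names, so its values are given apart and it enters no count of members.

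The series holds 15 RNA-seq libraries, each from CD4 memory, CD4 naive, CD8 memory or CD8 naive T cells. The animals, RhDBCb and RhM22, were sampled after and before 2-hydroxypropyl-beta-cyclodextrin, a cyclic sugar that takes up cholesterol. The solution, 15% (w/w), was given under the skin for at most 120 days, at 1 ml/kg/day. The groups after treatment hold 2 libraries each for CD4 memory, CD4 naive and CD8 memory cells, 1 per animal, and 1 library of RhM22 for CD8 naive cells. The groups before treatment hold 2 libraries of each subset, 1 per animal. No group of untreated animals followed over the same time was analysed here, and the labels do not say how the subsets were separated. Libraries that share an animal and a time are treated as 1 draw, 4 in all, although the labels do not say that they came from a single bleed, and the p-values measure the spread between libraries of 2 animals.

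Glycolysis splits glucose into pyruvate in the cytosol and yields a little ATP without oxygen. Glucose enters through transporters of the SLC2A family, and pyruvate is either reduced to lactate by lactate dehydrogenase and exported by SLC16A carriers, or carried into mitochondria and oxidised by pyruvate dehydrogenase, which the PDK kinases switch off. Naive T cells are known to rely mostly on mitochondrial oxidation, activated effector cells turn glycolysis up, and memory cells are known to start it quickly when they meet antigen again.

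Library totals ranged from 44414954 to 71787193 counts. CD4, the co-receptor of helper cells, lay at 207 to 549 CPM (counts scaled to library size by TMM factors) in CD4 libraries and at most at 1.68 CPM in CD8 libraries, and CD8A at 665 to 861 CPM in CD8 libraries and at most at 3.93 CPM in CD4 libraries. The summed level of 5 matched memory markers was 3466 to 5217 CPM in memory cells and 1024 to 2365 CPM in naive cells. The sum of 4 naive markers was 7242 to 10935 CPM in CD4 memory and 8132 to 20359 CPM in CD4 naive cells, which overlap. In CD8 cells it was 3800 to 6853 CPM in memory and 8781 to 13299 CPM in naive cells. Within each draw the memory library had the lower naive sum. Detected genes numbered 13525 to 14750 in the before libraries of RhDBCb, against up to 15445 in the series, and the counts of members called between memory and naive cells are given with and without them. In bulk libraries such as these, fewer cells of a type and less RNA per cell cannot be told apart.

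Levels between genes need scaling to length, and FPKM values (scaled to gene length and library size, as the authors deposited them) are used for that. Set beside CPM, the FPKM imply lengths far above that of an mRNA for many members, such as PGM1 (means 77 CPM and 0.478 FPKM) and HK1 (344 CPM and 3.03 FPKM). The order between genes rests on those lengths and is therefore uncertain. By mean CPM the highest member was SLC2A3, at 2620 CPM. GAPDH, ENO1, LDHA, PGK1, PGAM1 and TPI1 belong to families with near-identical copies in primate genomes, between which the authors' counting can split reads, so their levels are uncertain to that extent. GAPDH, the dehydrogenase in the middle of the pathway, had the highest mean, 419 FPKM over the 15 libraries. ENO1, the main enolase, followed at 123 FPKM and LDHA, the lactate dehydrogenase subunit that favours lactate, at 121 FPKM. TPI1, the triose isomerase, averaged 92.4 FPKM and SLC16A3, a lactate exporter, 86 FPKM. These 5 genes had the highest mean FPKM, though the ranges of SLC16A3 (35.5 to 140 FPKM) and TPI1 (42.4 to 239 FPKM) overlap those of lower genes. The next, PGAM1, the phosphoglycerate mutase, averaged 36.6 FPKM. SLC2A3, a high-affinity glucose transporter, lay at 33.3 FPKM, PGK1, the first ATP-yielding kinase, at 32.2 FPKM and ALDOA, the main aldolase, at 29.4 FPKM. The ranges of PGAM1, SLC2A3, PGK1 and ALDOA over libraries overlap, so their order is not set apart by the spread. Of the regulators, HIF1A, the oxygen-sensitive transcription factor that drives many of these genes, averaged 3.98 FPKM. PFKFB3, which makes the activator of phosphofructokinase, averaged 1.92 FPKM. In FPKM some enzymes lay below HIF1A, such as HK1 at 3.03 FPKM, but by mean CPM HK1 (344 CPM) lay above HIF1A (200 CPM). PFKP lay below both regulators on either scale, at 1.23 FPKM and 82.2 CPM, with PFKFB3 at 194 CPM. At the bottom were PFKM at 0.147, HK2 at 0.0432 and PFKFB4 at 0.00949 FPKM. The members' share of all counts was 1.01% to 1.46% per library.

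**Figure D1:**
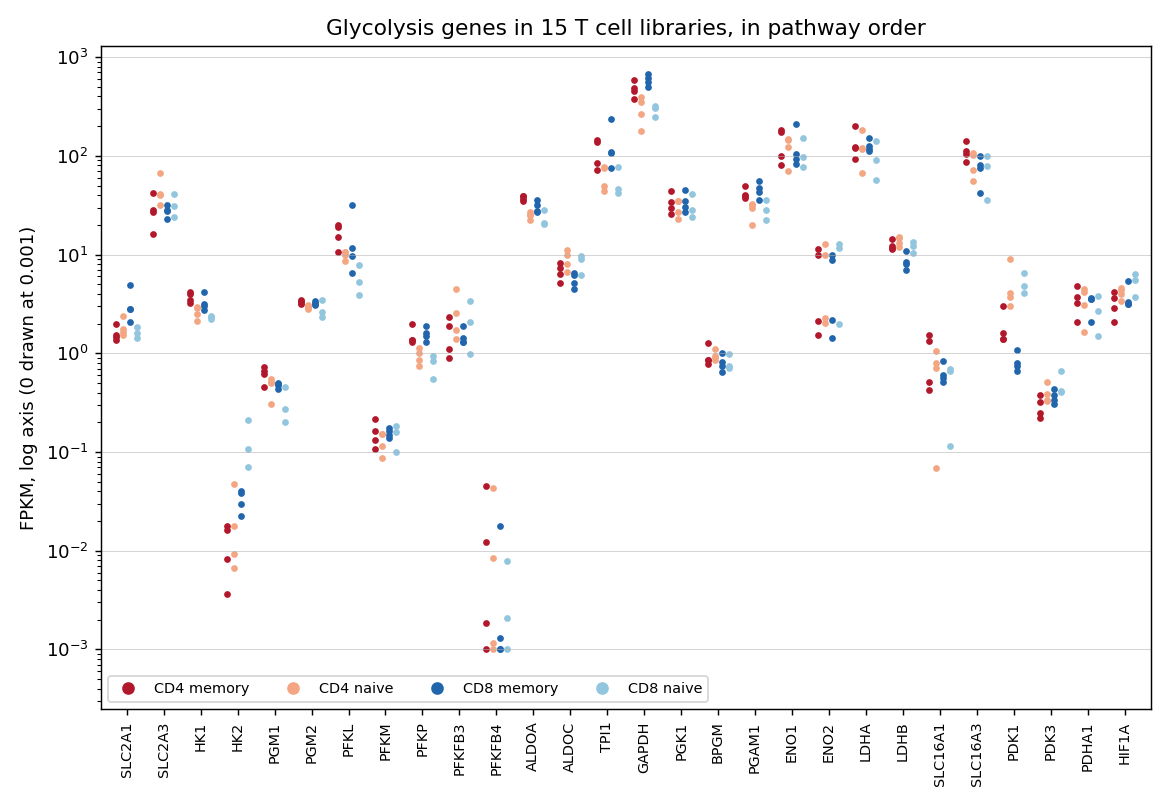
FPKM of the 28 members (log axis, 0 drawn at 0.001) in 15 libraries, in the order of the pathway, with 1 point per library coloured by subset. GAPDH, with a mean of 419 FPKM, lies above the other members, PFKFB4 and HK2 lie lowest, and PDK1 is split by subset with CD8 memory libraries at the bottom.

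Among the hexokinases, phosphofructokinases and aldolases the isozymes differed in RNA level, and enzyme activity was not measured. Among hexokinases, which trap glucose in the cell, HK1 averaged 3.03 FPKM and HK2 0.0432 FPKM. Among phosphofructokinases, the committed step, PFKL averaged 12.1 FPKM, PFKP 1.23 FPKM and PFKM 0.147 FPKM. Among aldolases ALDOA averaged 29.4 FPKM and ALDOC 7.33 FPKM. In CPM the means were 344 and 2.35 for HK1 and HK2, and 331, 82.2 and 6.83 for PFKL, PFKP and PFKM. For ALDOA and ALDOC they were 510 and 26.3 CPM. The order within each of these families was the same in the mean of every subset. LDHA exceeded LDHB, the subunit that favours pyruvate, in every library, by a ratio of 3.13 to 10.2 in counts, which are not scaled to length. In FPKM, whose lengths are uncertain as given above, the ratio was 5.49 to 17.8.

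ENO2, the enolase best known from neurons, separated the animals without overlap. RhM22 had 138 to 204 CPM over its 8 libraries and RhDBCb 22.9 to 36.5 CPM over its 7. ENO1, its main isozyme, had 1142 to 2050 CPM in RhM22 and 1680 to 3462 CPM in RhDBCb, which overlap. With 1 animal on each side, the ENO2 difference is a description of these animals.

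The first comparison asked how memory cells differ from naive cells of the same lineage, within draws. In CD4 cells 4 members were higher in memory cells and 4 were lower, 8 of 28, where 11.5% of all 14814 genes tested were called, 6.82% higher and 4.71% lower. In CD8 cells 8 members were higher in memory cells and 4 were lower, 12 of 28, where 16.5% of all genes were called, 9.93% higher and 6.6% lower. The median log2 fold change of the members was 0.10 in CD4 cells, against -0.02 for all genes tested, and 0.12 in CD8 cells, against 0.03. Calls rest on edgeR's quasi-likelihood test, with a Benjamini-Hochberg adjusted p (over all genes tested) under 0.05. Higher in both lineages were TPI1, GAPDH, ALDOA and PFKP, all enzymes of the pathway's trunk. Lower in both were PDK1 and PDK3, kinases that hold pyruvate back from oxidation in mitochondria. A further 14 members were called in neither lineage. In a fit of the libraries of RhDBCb alone, 0 members were called in CD4 cells, where 268 of all genes were. CD8 naive cells of this animal hold 1 library, so its CD8 contrast is left out. In RhM22 alone 9 members were called in CD4 and 12 in CD8 cells, where 1450 and 2733 of all genes were. Without the draw as a block 2 members were called in CD4 and 4 in CD8 cells, where 502 and 941 of all genes were.

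**Figure D2:**
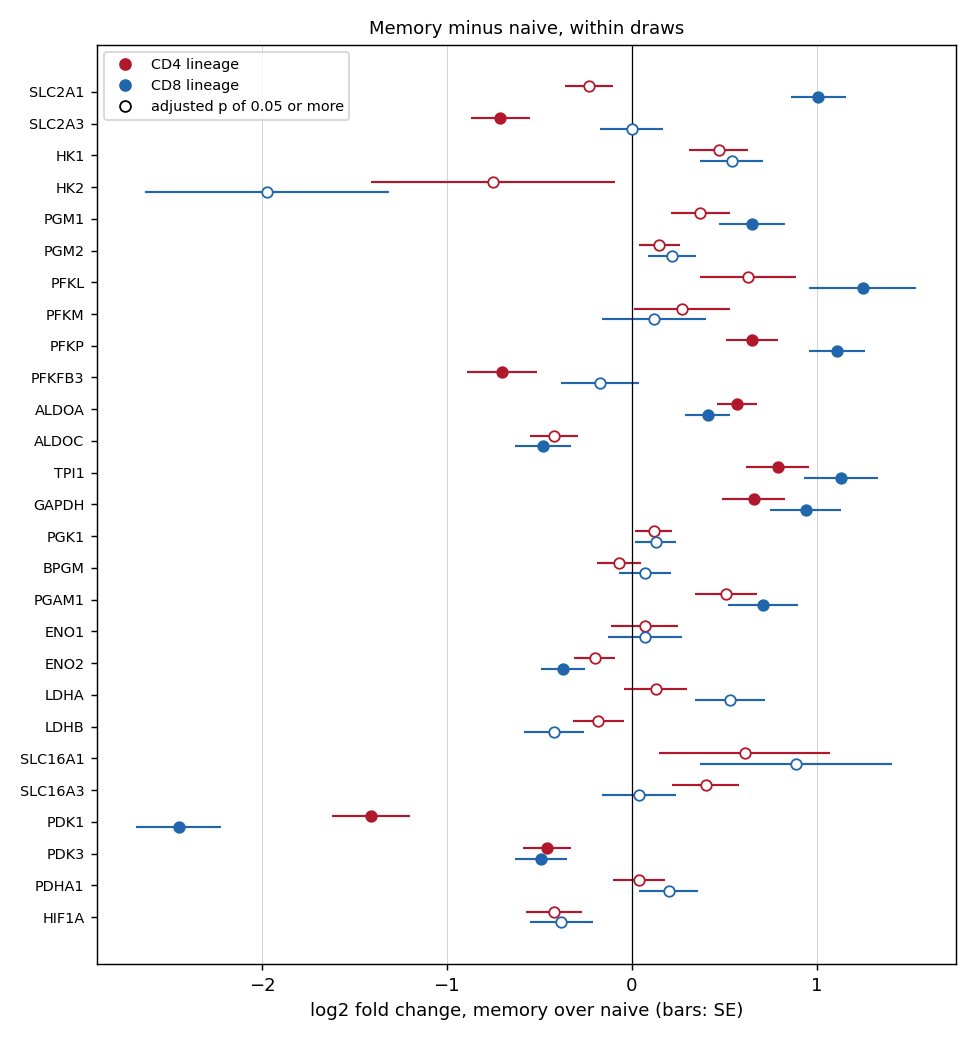
Log2 fold change of memory over naive cells within draws, for all members except PFKFB4, with bars of 1 SE. Filled points have an adjusted p under 0.05. TPI1, GAPDH, ALDOA and PFKP lie right of 0 in both lineages, PDK1 lies farthest left, and SLC2A1 lies right of 0 in CD8 cells and left of 0 in CD4 cells.

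Values in libraries are given below in the order RhDBCb after, RhDBCb before, RhM22 after and RhM22 before treatment, without the first of these in CD8 naive cells. PDK1 (ENSMMUG00000022553) showed the largest memory effect of the members called. CD4 memory cells had 53, 115, 53.2 and 61.2 CPM and CD4 naive cells 118, 351, 143 and 162 CPM. CD8 memory cells had 25.8, 31.9, 28.9 and 41.5 CPM and CD8 naive cells 252, 186 and 156 CPM. Memory libraries lay below all naive libraries of their lineage, without overlap. The log2 fold change was -1.41 in CD4 cells (SE 0.21, edgeR adjusted p = 0.000691) and -2.45 in CD8 cells (SE 0.23, edgeR adjusted p = 3e-05). PDK1 was called in all 15 fits that left out 1 library, in both lineages.

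PDK3 (ENSMMUG00000012819), another kinase of the family, was lower by less. CD4 memory cells had 60, 51.8, 40 and 35.2 CPM and CD4 naive cells 63.6, 83, 53.3 and 54.9 CPM. CD8 memory cells had 68.9, 61.6, 54.5 and 49.5 CPM and CD8 naive cells 109, 66.4 and 65 CPM. The groups overlap in both lineages, but memory was below naive in 4 of 4 CD4 draws and in 3 of 3 CD8 draws. This gave a log2 fold change of -0.46 in CD4 cells (SE 0.13, edgeR adjusted p = 0.0373) and -0.49 in CD8 cells (SE 0.14, edgeR adjusted p = 0.0316). With 1 library left out, the CD4 call was kept in 6 of 15 fits (edgeR adjusted p up to 0.14) and lost without either CD4 before library of RhDBCb or any library of RhM22 except CD8 memory after. The CD8 call was kept in 10 of 15 fits (edgeR adjusted p up to 0.156) and lost without any CD8 naive library or either CD8 memory library before treatment.

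Each glucose transporter was called in 1 lineage. SLC2A1 (ENSMMUG00000000373), known as GLUT1 and as the transporter that T cells add on activation, had 63.2, 156, 87 and 87 CPM in CD8 memory cells and 58.1, 49.6 and 43.6 CPM in CD8 naive cells. In CD4 cells it had 41.4, 61, 47.1 and 45.1 CPM in memory and 48, 73.8, 54.7 and 52 CPM in naive cells. CD8 memory cells lay above all CD8 naive cells, while the CD4 groups overlap with memory slightly below naive in 4 of 4 draws. On the log2 scale the fold change was 1.01 in CD8 cells (SE 0.15, edgeR adjusted p = 0.000497) and -0.23 in CD4 cells (SE 0.13, edgeR adjusted p = 0.311). The CD8 call was kept in all 15 fits with 1 library left out.

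The memory effect on SLC2A1 in CD8 minus that in CD4 cells was itself called, at 1.24 (SE 0.20, edgeR adjusted p = 0.0384). It was the 1 member called there, where 0.0878% of all genes were, 0.0675% higher and 0.0203% lower. The call was kept in 2 of 15 fits with 1 library left out, with adjusted p up to 0.173, although the difference stayed between 1.09 and 1.31. The 2 fits that kept it were those without a CD8 memory library of RhDBCb, after or before treatment.

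SLC2A3 (ENSMMUG00000046124), known as GLUT3, went the other way in CD4 cells. CD4 memory cells had 1248, 3288, 2194 and 2108 CPM and CD4 naive cells 2502, 5252, 3132 and 3314 CPM. Each memory library lay below the naive library of its draw, by -1.0 to -0.51 on the log2 scale, though the groups overlap across draws. The log2 fold change was -0.71 (SE 0.16, edgeR adjusted p = 0.0104), and all 15 fits with 1 library left out kept the call. In CD8 cells it had 1790, 2259, 2184 and 2485 CPM in memory and 3274, 2410 and 1866 CPM in naive cells, a log2 fold change of 0.00 (SE 0.17). The difference between the lineages was 0.71 (SE 0.24) and did not pass, with an edgeR adjusted p of 0.424. SLC2A3 has a close paralog, SLC2A14, with which it can share reads.

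**Figure D3:**
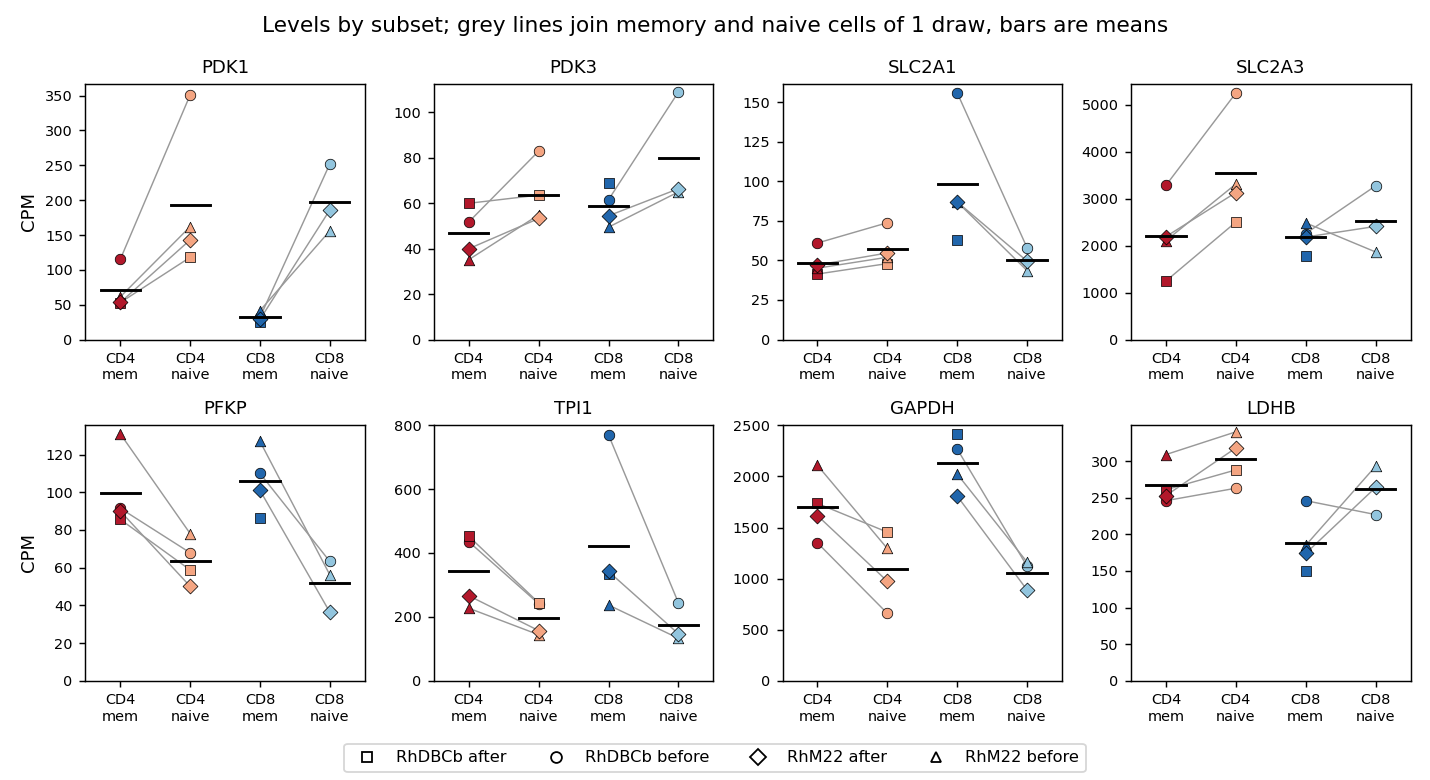
CPM of 8 members in the 4 subsets, with 1 point per library, the shape giving animal and time, black bars the means, and grey lines joining memory and naive cells of 1 draw. PDK1 is lower in memory than in naive cells of both lineages, SLC2A1 has its highest mean in CD8 memory cells, and LDHB is lowest in CD8 memory cells.

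Neither hexokinase passed the test. HK1 had 360, 390, 445 and 475 CPM in CD4 memory cells and 342, 241, 283 and 334 CPM in CD4 naive cells, a log2 fold change of 0.47 (SE 0.16, edgeR adjusted p = 0.0717). The CD8 libraries had 312, 485, 357 and 347 CPM in memory and 267, 252 and 270 CPM in naive cells, a log2 fold change of 0.54 (SE 0.17, edgeR adjusted p = 0.0507). Its memory libraries lay above all naive libraries in both lineages. HK2, the inducible isozyme, stayed near the floor in most libraries and was highest in CD8 naive cells, at 3.81, 11.4 and 5.86 CPM, against 1.6, 2.24, 1.22 and 2.11 CPM in CD8 memory cells. Its log2 fold change was -1.97 in CD8 cells (SE 0.66, edgeR adjusted p = 0.0579) and -0.75 in CD4 cells (SE 0.66, edgeR adjusted p = 0.527). In CD4 cells it had 0.44, 0.195, 0.958 and 0.869 CPM in memory and 2.63, 0.979, 0.498 and 0.367 CPM in naive cells.

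The phosphofructokinases, which commit sugar to glycolysis, were higher in memory cells in several tests. PFKP (ENSMMUG00000004935) had 85.6, 91.5, 90 and 131 CPM in CD4 memory cells and 58.8, 67.9, 50.1 and 78.1 CPM in CD4 naive cells. It had 86.6, 110, 101 and 127 CPM in CD8 memory cells and 63.3, 36.4 and 56.2 CPM in CD8 naive cells. Its groups did not overlap in either lineage. This gave a log2 fold change of 0.65 in CD4 cells (SE 0.14, edgeR adjusted p = 0.00744) and 1.11 in CD8 cells (SE 0.15, edgeR adjusted p = 0.000312), and both calls were kept in all 15 fits with 1 library left out.

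PFKL (ENSMMUG00000004173), the most abundant isozyme, was called in CD8 cells. It had 267, 882, 320 and 177 CPM in CD8 memory cells and 216, 146 and 107 CPM in CD8 naive cells, which overlap. The high value is the before library of RhDBCb. On the log2 scale the fold change was 1.25 (SE 0.29, edgeR adjusted p = 0.00967), and 0.77 (adjusted p = 0.0117) without that library. Without the CD8 naive before library of RhDBCb the adjusted p was 0.0542. In CD4 cells PFKL had 544, 516, 406 and 291 CPM in memory and 293, 295, 271 and 239 CPM in naive cells, a log2 fold change of 0.63 (SE 0.26, edgeR adjusted p = 0.142).

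The third isozyme, PFKM, was low. It had 10, 5.01, 6.1 and 7.53 CPM in CD4 memory cells and 4.11, 7.06, 5.3 and 7.27 CPM in CD4 naive cells. In CD8 cells it had 6.94, 6.67, 7.58 and 8.25 CPM in memory and 7.42, 4.64 and 8.56 CPM in naive cells. Its log2 fold changes were 0.27 in CD4 cells (SE 0.26) and 0.12 in CD8 cells (SE 0.28), and its groups overlap in both.

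The regulators of phosphofructokinase are bifunctional enzymes that set the level of its sugar bisphosphate activator. PFKFB3 (ENSMMUG00000010596), the form with the strongest kinase activity, had 89.6, 110, 188 and 233 CPM in CD4 memory cells and 143, 174, 258 and 460 CPM in CD4 naive cells. It was lower in memory in 4 of 4 draws, with a log2 fold change of -0.70 (SE 0.19, edgeR adjusted p = 0.0295). With 1 library left out the call was kept in 7 of 15 fits and lost without any CD4 library except the CD4 naive after library of RhDBCb, or without the CD8 naive after library of RhM22 (adjusted p up to 0.112). In CD8 cells PFKFB3 had 131, 135, 145 and 192 CPM in memory and 99.6, 208 and 338 CPM in naive cells, a log2 fold change of -0.17 (SE 0.21, edgeR adjusted p = 0.636). PFKFB4 had at most 1.8 CPM in any library and its groups overlap in both lineages.

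In the middle of the pathway TPI1, GAPDH and ALDOA were higher in memory cells of both lineages. TPI1 (ENSMMUG00000052852) had 452, 435, 266 and 227 CPM in CD4 memory cells and 244, 241, 157 and 144 CPM in CD4 naive cells. It had 334, 769, 342 and 237 CPM in CD8 memory cells and 244, 147 and 133 CPM in CD8 naive cells. In every draw the memory library was the higher one, by 0.66 to 0.89 on the log2 scale in CD4 cells. The log2 fold change was 0.79 in CD4 cells (SE 0.17, edgeR adjusted p = 0.0102) and 1.13 in CD8 cells (SE 0.20, edgeR adjusted p = 0.00149). The CD4 call was lost without the CD4 memory after library of RhDBCb alone (adjusted p = 0.0504), and the CD8 call was kept in all 15 fits.

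GAPDH (ENSMMUG00000018679) had 1736, 1350, 1617 and 2109 CPM in CD4 memory cells and 1455, 660, 975 and 1295 CPM in CD4 naive cells. The CD8 libraries had 2417, 2270, 1809 and 2024 CPM in memory and 1123, 890 and 1163 CPM in naive cells, without overlap. This gave a log2 fold change of 0.66 in CD4 cells (SE 0.17, edgeR adjusted p = 0.0252) and 0.94 in CD8 cells (SE 0.19, edgeR adjusted p = 0.0049). The CD8 call was kept in all 15 fits with 1 library left out. The CD4 call was lost in 4 of them, without the CD4 naive before library of RhDBCb or any of 3 CD4 libraries of RhM22 (memory before, naive after and memory after), with adjusted p up to 0.0876.

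ALDOA (ENSMMUG00000000983) had 678, 680, 602 and 625 CPM in CD4 memory cells and 445, 470, 431 and 400 CPM in CD4 naive cells. These groups stand well apart, and the log2 fold change was 0.57 (SE 0.11, edgeR adjusted p = 0.00393), kept in all 15 fits with 1 library left out. In CD8 cells ALDOA had 472, 631, 546 and 467 CPM in memory and 490, 359 and 353 CPM in naive cells. On the log2 scale the fold change was 0.41 (SE 0.12, edgeR adjusted p = 0.0303), kept in 10 of 15 fits and lost without RhDBCb's CD8 memory library before treatment or any CD8 library of RhM22 (adjusted p up to 0.17). Its isozyme ALDOC (ENSMMUG00000020322) pointed the other way, with 16, 18.9, 23.4 and 22.4 CPM in CD8 memory cells and 22.2, 32 and 34.7 CPM in CD8 naive cells. The log2 fold change of ALDOC was -0.48 in CD8 cells (SE 0.15, edgeR adjusted p = 0.0374), kept only in the 5 fits without a before library of RhDBCb other than CD8 naive, its CD4 memory after library or, of RhM22, the CD4 naive library before treatment, with adjusted p up to 0.124. In CD4 cells ALDOC had 22.6, 18.5, 25.7 and 29.3 CPM in memory and 28.9, 24, 35.3 and 40.8 CPM in naive cells, a log2 fold change of -0.42 (SE 0.13, edgeR adjusted p = 0.0599).

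Further down the trunk PGAM1 (ENSMMUG00000020027) was called in CD8 cells. It had 353, 467, 293 and 388 CPM in CD8 memory cells and 185, 231 and 290 CPM in CD8 naive cells, without overlap. The log2 fold change was 0.71 (SE 0.19, edgeR adjusted p = 0.0231), kept in 12 of 15 fits with 1 library left out. The call was lost without the CD8 naive before, CD8 memory before (both RhDBCb) or CD8 naive after (RhM22) library, with adjusted p up to 0.129. PGK1 had log2 fold changes of 0.12 in CD4 cells (SE 0.10) and 0.13 in CD8 cells (SE 0.11), and BPGM, which makes the bisphosphoglycerate side product, -0.07 (SE 0.12) and 0.07 (SE 0.14). None of these passed the test.

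Neither enolase was called higher in memory cells. ENO1 had 2934, 2802, 1289 and 1612 CPM in CD4 memory cells and 2399, 2434, 1142 and 2050 CPM in CD4 naive cells. In CD8 cells it had 1680, 3462, 1492 and 1357 CPM in memory and 2495, 1253 and 1581 CPM in naive cells. Its groups overlap and its log2 fold change was 0.07 in each lineage (SE 0.18 in CD4 and 0.20 in CD8 cells). ENO2 (ENSMMUG00000009443) had 34, 22.9, 155 and 138 CPM in CD8 memory cells and 31.6, 199 and 182 CPM in CD8 naive cells, lower in memory in 3 of 3 draws. This gave a log2 fold change of -0.37 (SE 0.12, edgeR adjusted p = 0.0454), kept only in 3 fits, those that left out from RhDBCb a memory library after treatment or the CD4 naive library before it, with adjusted p up to 0.15. In CD4 cells ENO2 had 32.9, 24.1, 176 and 155 CPM in memory and 36.5, 32, 204 and 159 CPM in naive cells, a log2 fold change of -0.20 (SE 0.11, edgeR adjusted p = 0.265).

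PGM1 (ENSMMUG00000020049), the mutase that links glycogen to glycolysis, was called in CD8 cells. It had 75.5, 80.6, 69.7 and 81 CPM in CD8 memory cells and 73.6, 32.7 and 43.7 CPM in CD8 naive cells. The naive library of RhDBCb reached the range of the memory libraries, while those of RhM22 lay well below it. On the log2 scale the fold change was 0.65 (SE 0.18, edgeR adjusted p = 0.0267), kept in 11 of 15 fits with 1 library left out. Without a CD8 library of RhM22 (each of 4) the adjusted p was up to 0.155. PGM2, a related mutase, had log2 fold changes of 0.15 in CD4 cells (SE 0.11) and 0.22 in CD8 cells (SE 0.13).

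At the lactate end no member was called between memory and naive cells. LDHA had 1512, 1152, 1462 and 2500 CPM in CD4 memory cells and 1532, 834, 1454 and 2337 CPM in CD4 naive cells. The CD8 libraries had 1379, 1588, 1455 and 1884 CPM in memory and 710, 1137 and 1735 CPM in naive cells, a log2 fold change of 0.53 (SE 0.19, edgeR adjusted p = 0.0695). LDHB had 261, 246, 253 and 309 CPM in CD4 memory cells, 288, 263, 318 and 340 CPM in CD4 naive cells, 150, 246, 174 and 185 CPM in CD8 memory cells and 227, 264 and 293 CPM in CD8 naive cells. Its log2 fold change was -0.42 in CD8 cells (SE 0.16, edgeR adjusted p = 0.0882) and -0.18 in CD4 cells (SE 0.14, edgeR adjusted p = 0.484). The count ratio of LDHA to LDHB was 9.17, 6.46, 8.35 and 10.2 in CD8 memory cells and 3.13, 4.3 and 5.93 in CD8 naive cells. In CD4 cells the ratio was 5.8, 4.68, 5.78 and 8.1 in memory and 5.33, 3.18, 4.57 and 6.87 in naive cells. The memory library had the higher ratio in each of the 7 draws and lineages where both were measured, and the CD8 groups do not overlap.

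The lactate carriers were not called in either lineage. SLC16A3, known as MCT4, had 1091, 677, 812 and 871 CPM in CD4 memory cells, 815, 440, 572 and 863 CPM in CD4 naive cells, 598, 340, 787 and 636 CPM in CD8 memory cells and 283, 621 and 786 CPM in CD8 naive cells. Its log2 fold change of memory over naive cells was 0.40 in CD4 cells (SE 0.18, edgeR adjusted p = 0.185) and 0.04 in CD8 cells (SE 0.20, edgeR adjusted p = 0.917). SLC16A1, known as MCT1, had 20.5, 16.9, 52.5 and 61.6 CPM in CD4 memory cells, 29, 2.75, 42 and 33 CPM in CD4 naive cells, 20.3, 23.2, 24.1 and 33.7 CPM in CD8 memory cells and 4.65, 27.7 and 26.1 CPM in CD8 naive cells. Its 2 lowest values were the naive libraries of RhDBCb before treatment.

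HIF1A was not called in either lineage. It had 102, 144, 180 and 207 CPM in CD4 memory cells and 201, 170, 220 and 235 CPM in CD4 naive cells, a log2 fold change of -0.42 (SE 0.15, edgeR adjusted p = 0.0955). In CD8 cells it had 163, 163, 158 and 272 CPM in memory and 186, 275 and 321 CPM in naive cells, a log2 fold change of -0.38 (SE 0.17, edgeR adjusted p = 0.145). Its memory library lay below the naive one in each draw of both lineages. PDHA1, the catalytic subunit of pyruvate dehydrogenase, had log2 fold changes of 0.04 in CD4 cells (SE 0.14) and 0.20 in CD8 cells (SE 0.16). GPI had 0.43 in CD4 cells (SE 0.14, edgeR adjusted p = 0.0705) and 0.23 in CD8 cells (SE 0.16, edgeR adjusted p = 0.361).

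Proliferation markers moved with these differences. Of 12 such genes 7 were called higher in memory cells in each lineage, where 6.82% (CD4) and 9.93% (CD8) of all genes were. The summed level of the 12 genes was 300 to 356 CPM in CD4 memory cells and 217 to 252 CPM in CD4 naive cells. In CD8 cells the sum was 326 to 753 CPM in memory and 172 to 260 CPM in naive cells, and 753 CPM was the before library of RhDBCb, which also had the highest SLC2A1, PFKL, TPI1 and ENO1 levels of the series. The natural killer marker sum (4 matched genes) was 20 to 65.5 CPM in CD8 memory cells and 4.92 to 12.3 CPM in CD8 naive cells, the B cell sum (5 matched genes) 26.2 to 37.8 CPM in CD8 memory and 61.3 to 111 CPM in CD8 naive cells, and the monocyte and dendritic cell sum (8 matched genes) 17.1 to 48.8 CPM in CD4 memory cells and 9.86 to 18.8 CPM in CD4 naive cells. The part of these cells in the memory differences was not tested. Without the before libraries of RhDBCb the members called were 6 higher and 2 lower in CD4 cells and 7 higher and 4 lower in CD8 cells. Of all genes 1133 were higher and 615 lower in CD4 cells, and 1165 higher and 754 lower in CD8 cells. In CD4 cells PFKFB3 and PDK3 were then not called, and PFKL (adjusted p = 0.0334) and PGAM1 (adjusted p = 0.0429) were called higher by edgeR.

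The lineages were compared next. No member was called between CD8 naive and CD4 naive cells, where 3.37% of all genes were (1.69% higher, 1.68% lower), and 8 members and 1994 of all genes had an unadjusted p under 0.05. The median of the members was -0.20, against -0.02 for all genes tested. HK2 had the smallest p, with 3.81, 11.4 and 5.86 CPM in CD8 naive cells, all above the 0.367 to 2.63 CPM of CD4 naive cells. Its log2 fold change was 2.85 (SE 0.73, edgeR adjusted p = 0.0501). DESeq2 called 4 members in this contrast, 1 higher and 3 lower, and 1054 of all genes. The next in order of p were SLC2A3 at -0.64 (SE 0.17, edgeR adjusted p = 0.0698), PGM1 at -0.60 (SE 0.18, 0.108), PFKL at -0.89 (SE 0.29, 0.139) and PDK3 at 0.38 (SE 0.14, 0.222).

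Between CD8 memory and CD4 memory cells 2 of 28 members were called, where 8.24% of all genes were, 4.63% higher and 3.61% lower. SLC2A1 was higher in CD8 memory cells, with 63.2, 156, 87 and 87 CPM against 41.4, 61, 47.1 and 45.1 CPM in CD4 memory cells. Its log2 fold change was 0.96 (SE 0.13, edgeR adjusted p = 0.000508). PDK1 was lower in CD8 memory cells, with 25.8, 31.9, 28.9 and 41.5 CPM against 53, 115, 53.2 and 61.2 CPM in CD4 memory cells. Its log2 fold change was -1.05 (SE 0.21, edgeR adjusted p = 0.00621). Neither gene's groups overlap, and both calls were kept in all 15 fits with 1 library left out. LDHB, at -0.50 (SE 0.15, edgeR adjusted p = 0.0505), and SLC16A3, at -0.59 (SE 0.18, edgeR adjusted p = 0.0627), did not pass. For PDK1 the memory effect in CD8 cells minus that in CD4 cells was -1.04 (SE 0.30) and did not pass, with an edgeR adjusted p of 0.36.

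The second question was whether the members changed over the course of cyclodextrin. Over all subsets and both animals no member was called by edgeR, where 0.00675% of all genes were, and 8 members and 1526 of all genes had an unadjusted p under 0.05. DESeq2 called 2 members, 1 in each direction, and 177 of all genes. The median log2 fold change of the members was -0.09, against 0.01 for all genes tested. PFKP was lower after treatment in 7 of 7 pairs of libraries, with a log2 fold change of -0.43 (SE 0.11, edgeR adjusted p = 0.311). PFKFB3 was also lower in 7 of 7 pairs, by -0.83 to -0.04, and ENO2 higher in 7 of 7, by 0.13 to 0.56. ENO2 had a log2 fold change of 0.29 (SE 0.09, edgeR adjusted p = 0.341) and PFKFB3 of -0.35 (SE 0.15, edgeR adjusted p = 0.457). PDK1 followed at -0.55 (SE 0.19, edgeR adjusted p = 0.387), PGM1 at -0.32 (SE 0.13, 0.433) and ENO1 at -0.33 (SE 0.14, 0.444).

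Within subsets no member was called, and no gene of the 14814 was called by edgeR in any of the 4 subsets. The members with an unadjusted p under 0.05 numbered 2 in CD4 naive, 0 in CD4 memory, 1 in CD8 naive and 0 in CD8 memory cells. Among all genes they numbered 603, 230, 148 and 216 in the same order of subsets, and DESeq2 called 9 genes in CD4 naive and 0 genes in each of the other subsets. In CD8 memory cells 24 of 28 members lay below 0, with a median of -0.28 against 0.01 for all genes tested. Several of these went apart in the animals: after minus before in log2(CPM + 0.5) was 0.85 in RhM22 and -1.72 in RhDBCb for PFKL, 0.53 and -1.2 for TPI1, 0.14 and -1.04 for ENO1, and 0 and -1.29 for SLC2A1, in the same order of animals. With 1 library left out the fitted change of SLC2A1 ranged from -1.06 (without the CD8 memory library of RhM22 after treatment) to -0.25 (without that of RhDBCb before it). CD8 memory cells of RhDBCb before treatment, with the proliferation sum of 753 CPM, are on the before side of that contrast, and the part of that library was not tested there. In CD4 naive cells the 5 members with the smallest p had log2 fold changes of -0.91 (PDK1, SE 0.37), 1.58 (SLC16A1, SE 0.67), -0.41 (PFKP, SE 0.23), -0.57 (PFKFB3, SE 0.33) and -0.62 (PFKM, SE 0.36), each with an edgeR adjusted p of 0.897. In CD4 memory cells they were PDK1 at -0.68, SLC2A3 at -0.63, ENO2 at 0.31, PFKP at -0.33 and BPGM at -0.37 on the log2 scale. In CD8 naive cells, where RhM22 alone has both times, they were PFKP at -0.78, PGM1 at -0.65, PFKM at -0.85, HK2 at 1.26 and GAPDH at -0.39. In CD8 memory cells they were SLC2A1 at -0.65, LDHB at -0.42, ENO2 at 0.37, ENO1 at -0.45 and HIF1A at -0.37. Outside CD4 naive cells each of these had an edgeR adjusted p of 1.

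The animals differed from each other. In RhM22 no member was called after against before treatment, where 0.0608% of all genes were, and 6 members and 974 of all genes had an unadjusted p under 0.05, with DESeq2 calling 3 members lower and 248 of all genes. In RhDBCb 8 of 28 members were called, 4 higher and 4 lower, where 10.1% of all genes were, 5.49% higher and 4.62% lower. The median of the members was -0.16 in RhM22 and -0.07 in RhDBCb, against 0.01 and 0.00 for all genes tested. Higher after treatment in RhDBCb were PDHA1, SLC16A3, PGK1 and PFKFB4, and lower were SLC2A3, SLC2A1, PDK1 and BPGM. Of the 4 before libraries of this animal, 3 have the fewest detected genes of the series (CD8 naive 13881, CD4 memory 13712 and CD4 naive 13525), against 14410 to 15034 after treatment, and all 4 belong to 1 draw, so the draw and the treatment cannot be told apart. A fit of the 7 libraries of RhDBCb alone called 0 members and 1 gene of all tested.

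**Figure D4:**
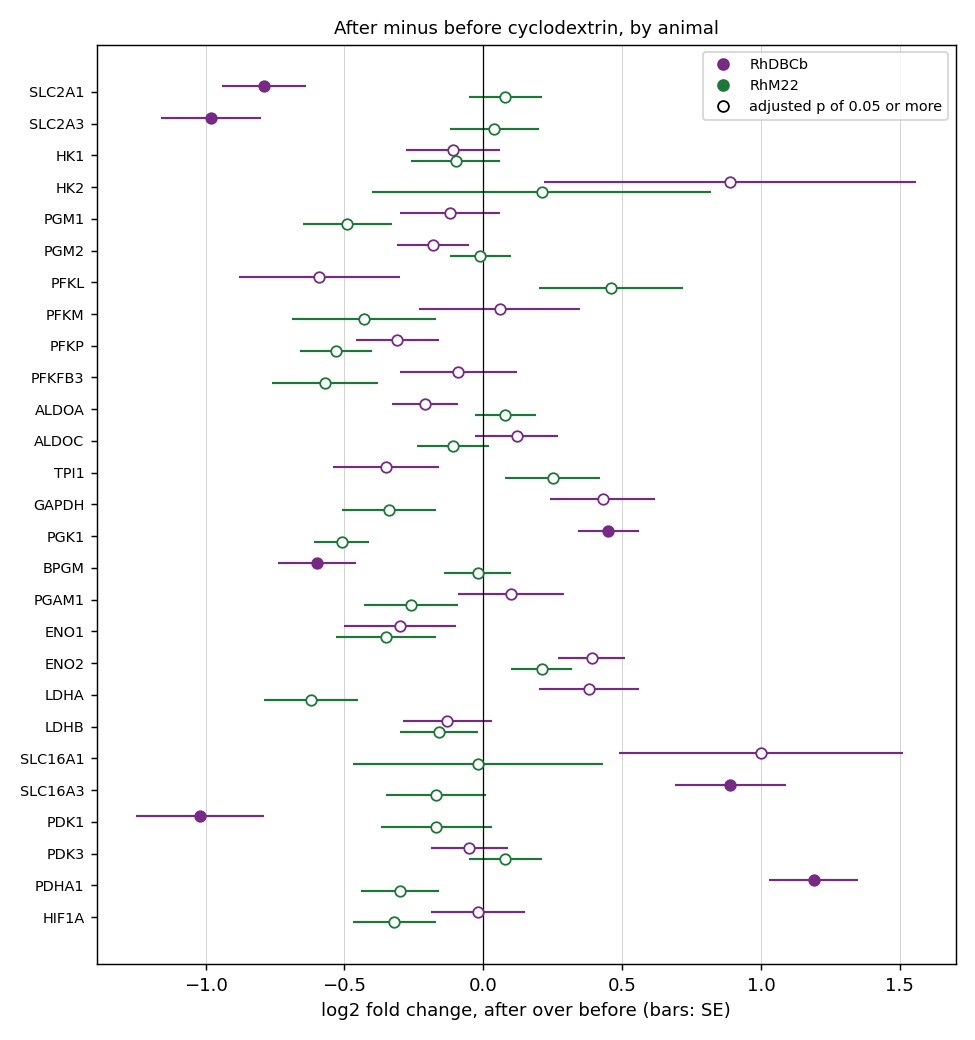
Log2 fold change after over before treatment in each animal over its subsets, for all members except PFKFB4, with bars of 1 SE and filled points at an adjusted p under 0.05. All filled points belong to RhDBCb. PDHA1, PGK1, SLC16A3 and LDHA lie on opposite sides of 0 in the 2 animals.

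Values in libraries of 1 animal follow in the order CD4 memory, CD4 naive, CD8 memory and CD8 naive, the last not measured in RhDBCb after treatment. PDHA1 (ENSMMUG00000017336) had 80.9, 77.1 and 61.4 CPM in RhDBCb after treatment, against 34.7, 28.1, 35.9 and 25.4 CPM before it. In RhM22 it had 53.9, 52.4, 59.4 and 44.9 CPM after treatment, against 62.1, 73, 59.6 and 63.8 CPM before it. The before libraries of RhDBCb lay below every other library of the series. The log2 fold change in RhDBCb was 1.19 (SE 0.16, edgeR adjusted p = 0.0012), kept in all 15 fits with 1 library left out, and in RhM22 -0.30 (SE 0.14, edgeR adjusted p = 0.758). The change in RhM22 minus that in RhDBCb was -1.49 (SE 0.21, edgeR adjusted p = 0.00275), also kept in all 15.

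Over the members, 7 of 28 had a change in RhM22 that differed from that in RhDBCb, 2 of them higher and 5 lower, where 4.58% of all genes were called, 1.81% higher and 2.77% lower. PGK1 (ENSMMUG00000012874) had 731, 768 and 750 CPM in RhDBCb after treatment, against 560, 503, 607 and 526 CPM before it. RhM22 libraries had 635, 594, 668 and 620 CPM after treatment, against 951, 771, 974 and 883 CPM before it. The groups do not overlap in either animal and point in opposite directions. The change was 0.45 in RhDBCb (SE 0.11, edgeR adjusted p = 0.0208) and -0.51 in RhM22 (SE 0.10, edgeR adjusted p = 0.102), and their difference -0.95 (SE 0.15, edgeR adjusted p = 0.00496) was kept in all 15 fits with 1 library left out. Leaving out either CD4 library before treatment or the CD4 naive library after it ended the call in RhDBCb (adjusted p up to 0.163).

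SLC16A3 (ENSMMUG00000010121) had 1091, 815 and 598 CPM in RhDBCb after treatment, against 677, 440, 340 and 283 CPM before it. In RhM22 it had 812, 572, 787 and 621 CPM after treatment, against 871, 863, 636 and 786 CPM before it. The change in RhDBCb was 0.89 (SE 0.20, edgeR adjusted p = 0.0138), lost without its CD4 naive after library alone (adjusted p = 0.0887). The difference between the animals was -1.06 (SE 0.27, edgeR adjusted p = 0.0388), kept only in the 5 fits without a CD4 memory before library, the CD8 memory after library of either animal or, of RhDBCb, the CD8 memory library before treatment, with adjusted p up to 0.161.

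LDHA (ENSMMUG00000031024) was called for the difference between the animals and in neither animal. It had 1512, 1532 and 1379 CPM in RhDBCb after treatment, against 1152, 834, 1588 and 710 CPM before it. RhM22 libraries had 1462, 1454, 1455 and 1137 CPM after treatment, against 2500, 2337, 1884 and 1735 CPM before it, without overlap. The change was 0.38 in RhDBCb (SE 0.18, edgeR adjusted p = 0.219) and -0.62 in RhM22 (SE 0.17, edgeR adjusted p = 0.313). Their difference was -1.0 (SE 0.25, edgeR adjusted p = 0.0379), kept only in the 3 fits without a CD8 memory before library or the CD4 memory after library of RhDBCb, with adjusted p up to 0.143.

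Both glucose transporters were lower after treatment in RhDBCb. SLC2A3 had 1248, 2502 and 1790 CPM after treatment, against 3288, 5252, 2259 and 3274 CPM before it. In RhM22 it had 2194, 3132, 2184 and 2410 CPM after treatment, against 2108, 3314, 2485 and 1866 CPM before it. The change in RhDBCb was -0.98 (SE 0.18, edgeR adjusted p = 0.00614) and in RhM22 0.04 (SE 0.16, edgeR adjusted p = 1). The difference was 1.01 (SE 0.24, edgeR adjusted p = 0.029), kept only in the 5 fits without a CD8 library of RhDBCb, the CD8 memory before library of RhM22 or its CD4 naive after library, with adjusted p up to 0.117.

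SLC2A1 had 41.4, 48 and 63.2 CPM in RhDBCb after treatment, against 61, 73.8, 156 and 58.1 CPM before it. RhM22 libraries had 47.1, 54.7, 87 and 49.6 CPM after treatment, against 45.1, 52, 87 and 43.6 CPM before it, which overlap. The change in RhDBCb was -0.79 (SE 0.15, edgeR adjusted p = 0.00746), and the difference between the animals 0.87 (SE 0.20, edgeR adjusted p = 0.0263). For both transporters the call in RhDBCb was kept in all 15 fits with 1 library left out, while the difference for SLC2A1 was lost in 8, without the CD4 naive or CD8 memory after library of RhDBCb or any library of RhM22 other than CD8 memory (adjusted p up to 0.0914).

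PDK1 had 53, 118 and 25.8 CPM in RhDBCb after treatment, against 115, 351, 31.9 and 252 CPM before it. In RhM22 it had 53.2, 143, 28.9 and 186 CPM after treatment, against 61.2, 162, 41.5 and 156 CPM before it. The change in RhDBCb was -1.02 (SE 0.23, edgeR adjusted p = 0.0159), and the difference between the animals 0.85 (SE 0.31) did not pass, with an edgeR adjusted p of 0.134. BPGM (ENSMMUG00000004598) had 23.9, 27.2 and 20.3 CPM in RhDBCb after treatment, against 39.7, 34.8, 32.3 and 31 CPM before it, without overlap. Its change in RhDBCb was -0.60 (SE 0.14, edgeR adjusted p = 0.0172), and the difference between the animals 0.58 (SE 0.18) did not pass, with an edgeR adjusted p of 0.0922. Each of these calls in RhDBCb was lost in 3 of 15 fits. For PDK1 these were the fits without the CD4 naive before, CD4 memory before or CD4 naive after library of RhDBCb (adjusted p up to 0.115), and for BPGM those that left out from this animal the CD4 memory library before treatment, or the CD4 naive or CD8 memory library after it (adjusted p up to 0.0722).

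**Figure D5:**
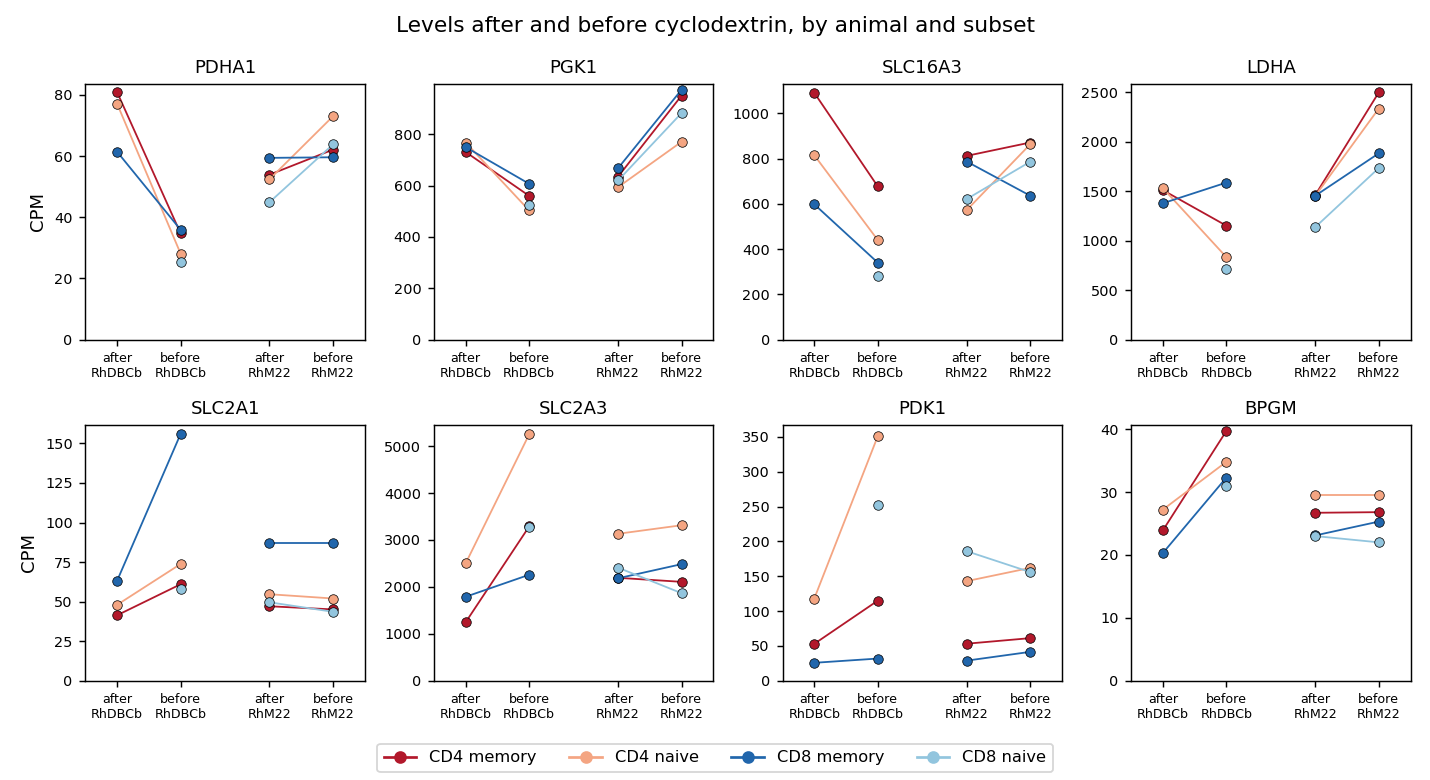
CPM of 8 members after and before treatment in each animal, with 1 point per library coloured by subset and lines joining a subset of 1 animal. In RhDBCb PDHA1, PGK1 and SLC16A3 are higher after treatment and SLC2A3, SLC2A1, PDK1 and BPGM lower, while PGK1 and LDHA are lower after treatment in RhM22.

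PFKFB4 (ENSMMUG00000000591), a member near the floor, was called through few libraries. RhDBCb had 119, 135 and 3 counts after treatment, against 0, 2, 1 and 0 counts before it. RhM22 had 5, 1, 0 and 6 counts after treatment, against 32, 17, 44 and 22 counts before it. The high values of RhDBCb were CD4 cells after treatment, and those of RhM22 all 4 before libraries. Its fitted log2 fold change in RhDBCb, 5.91 (SE 1.45, edgeR adjusted p = 0.0224), and the difference between the animals, -9.50 (SE 1.89, edgeR adjusted p = 0.0154), depend on the handling of the zeros. The call in RhDBCb was lost without its CD4 memory before, CD4 naive after or CD4 memory after library (adjusted p up to 0.166), and the difference without RhDBCb's CD4 naive library after treatment or the CD8 naive before library of RhM22 (up to 0.0824).

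In RhM22 the members with the smallest p, given as values, were PGK1, PFKP at -0.53 (SE 0.13, edgeR adjusted p = 0.269), LDHA, PFKFB3 at -0.57 (SE 0.19, 0.492) and PGM1 at -0.49 (SE 0.16, 0.501). Platelet markers moved with time in RhDBCb: the sum of 8 matched genes was 13.7 to 27 CPM after and 2.24 to 4.49 CPM before treatment. In RhM22 the sum was 29.2 to 98.6 CPM after and 21.9 to 59.8 CPM before it, which overlap. There it was lower after treatment in CD4 memory cells (29.2 against 35.6 CPM) and higher in the other subsets. At each time the sums of RhM22 lay above those of RhDBCb. No platelet marker was at 0 in all libraries, and GP9 was at 0 in 4. The erythroid sum (6 matched of 8) was at most at 2.31 CPM, with SLC4A1 at 0 in all 15 libraries, and the neutrophil sum (4 of 5) at most 1.8 CPM, with ELANE at 0 in all 15. The part of platelet RNA in the changes in RhDBCb was not tested.

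The enzymes that carry pyruvate into mitochondria were followed beside PDK1, PDK3 and PDHA1, as a list of 11 further genes. In CD4 memory against naive cells 0 were higher and 2 lower, and in CD8 memory against naive cells 1 was higher and 0 lower. Of all genes tested 6.82% were higher and 4.71% lower in CD4 cells, and 9.93% and 6.6% in CD8 cells. PDK2, a further kinase of pyruvate dehydrogenase, averaged 13.5 ± 6.5 CPM in CD4 memory and 24 ± 8.58 CPM in CD4 naive cells (SD, n = 4 each), a log2 fold change of -0.88 (SE 0.23, edgeR adjusted p = 0.0255). PDHX, the binding protein of the complex, averaged 31.2 ± 14.8 CPM in CD4 memory and 45.6 ± 22.1 CPM in CD4 naive cells (SD, n = 4 each), -0.55 (SE 0.12, edgeR adjusted p = 0.0115). MPC2, a subunit of the mitochondrial pyruvate carrier, averaged 44 ± 9.67 CPM in CD8 memory (SD, n = 4) and 27.6 ± 1.04 CPM in CD8 naive cells (SD, n = 3), 0.65 (SE 0.20, edgeR adjusted p = 0.0384). PDHB, the partner of PDHA1, averaged 180 CPM in CD4 memory and CD4 naive cells alike and had log2 fold changes of 0.00 in CD4 and -0.04 in CD8 cells.

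In RhDBCb this list had 1 gene higher and 2 lower after treatment, where 5.49% of all genes were higher and 4.62% lower. PDHX had 31.7, 41.6 and 32.6 CPM after treatment, against 51.9, 77.8, 59.6 and 71.8 CPM before it (log2 fold change -0.85, SE 0.14, edgeR adjusted p = 0.00389). Within 1 complex, PDHA1 was therefore higher and PDHX lower after treatment in this animal, each without overlap. The other 2 called were MPC1, the other carrier subunit, at -0.61 (SE 0.17, edgeR adjusted p = 0.0391), and PDP1, the phosphatase that reactivates pyruvate dehydrogenase, at 0.98 (SE 0.24, edgeR adjusted p = 0.0219). In RhM22, and over all subsets and both animals, 0 of the 11 were called in either direction, where 0.0608% and 0.00675% of all genes were.

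Another list held 27 further isozymes, transporters and regulators of glycolysis, of which 23 passed the filter. In each lineage 1 was higher and 1 lower in memory cells, where 11.5% of all genes were called in CD4 and 16.5% in CD8 cells. TXNIP, which restrains glucose uptake, was lower in both: it averaged 637 ± 201 CPM in CD4 memory and 1183 ± 487 CPM in CD4 naive cells (SD, n = 4 each), a log2 fold change of -0.87 (SE 0.19, edgeR adjusted p = 0.0108). In CD8 cells it averaged 558 ± 88 CPM in memory (SD, n = 4) and 1684 ± 574 CPM in naive cells (SD, n = 3), a log2 fold change of -1.39 (SE 0.22, edgeR adjusted p = 0.000779). PGM2L1, a relative of PGM2, was higher in CD4 memory cells by 0.77 (SE 0.21, edgeR adjusted p = 0.0309), and SLC2A8, a transporter of low abundance here, in CD8 memory cells by 2.65 (SE 0.82, edgeR adjusted p = 0.0419).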

How the data were processed

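Per the labels' protocols, RNA of pelleted blood T cells was taken up with an RNeasy Micro kit, and SMART-Seq v4, a chemistry without strand information, gave the libraries. Cutadapt 1.18, STAR 2.7.6a and RSEM 1.3.3 with the Mmul_10 (rheMac10) genome are named in the submitters' processing notes. The authors deposited expected counts per gene and FPKM values for 28331 of the 34884 genes. The 6553 genes outside the FPKM table had 0 counts in every library.

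Rounding these estimated counts was the first step, and no library total moved by more than 26.1 counts. Genes were filtered with filterByExpr (minimum count 10, by subset and time), which left 14814, and scaled by TMM. edgeR 4.0.16 quasi-likelihood tests (R 4.3.3, limma 3.58.1) were fitted over all genes with Benjamini-Hochberg adjustment, with calls at an adjusted p under 0.05. Subsets were compared with the draw (animal and time) as a block. The overall change was fitted with subset, animal and time, the changes by subset with the 8 groups and animal, and the changes by animal with an animal-by-time term. The SE is the log2 fold change over the root of F. Differences within draws or pairs used log2(CPM + 0.5). The draws pair the libraries because the labels give them the same animal and time (a single bleed is not stated), and over 42 pairs the deviations of libraries of the same animal correlated at 0.195 to 0.501. The scripts were tested on simulated data.

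The 30 members and the other lists were chosen with earlier results of these data known. Members called were described singly, at most 8 per direction for subset contrasts and 5 for single animals, with the isozyme pairs always and the 5 smallest p where none was called. Alternatives were other scaling factors, no filter, DESeq2 1.42.0, no block, parts of the libraries and leaving out each library. The CD8 naive library of RhDBCb after treatment was not analysed here. Sequences and coordinates are not used here.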

Additional observations from a re-analysis of the deposited data

Results flagged for a closer look

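In 6 of 84 groups of 4 libraries of 1 subset, 1 library stood apart from the other 3 by a gap that is large against the range of the group, and chance flags about 1 in 20 groups. Of these libraries, 3 are before libraries of RhDBCb. In CD8 memory cells of this animal before treatment ENO1 had 3462 CPM, against 1357 to 1680 CPM in the others, and PDHA1 35.9 CPM, against 59.4 to 61.4 CPM. In its CD4 memory cells before treatment PDK1 had 115 CPM, against 53 to 61.2 CPM. The others are before libraries of RhM22: HIF1A in CD8 memory cells had 272 CPM, against 158 to 163 CPM, PFKFB4 in CD8 memory cells 0.724 CPM, against 0 to 0.0516 CPM, and PFKP in CD4 memory cells 131 CPM, against 85.6 to 91.5 CPM.

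For 7 members the log2 change after against before treatment in RhM22 differed from that in RhDBCb in the test of the difference itself. The difference was 0.87 for SLC2A1, 1.01 for SLC2A3, -0.95 for PGK1, -1.0 for LDHA, -1.06 for SLC16A3, -1.49 for PDHA1 and -9.50 for PFKFB4, which has few counts. For SLC2A1 the memory effect in CD8 cells also differed from that in CD4 cells, by 1.24 on the log2 scale.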

How the results depend on the processing

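No value changed sign past the threshold under any alternative run. Members called (of 28) are given here. Without the draw as a replicate block they were 2 for CD4 memory against naive cells, 4 for CD8 memory against naive, 1 for CD8 against CD4 memory and 0 for the difference between lineages. Of all genes tested 502, 941, 384 and 1 were called there, against 1708, 2448, 1221 and 13 in the main fit. With before libraries alone they were 0, 3, 0 and 0 in the same order, where 165, 484, 143 and 0 of all genes were called. For CD4 memory against naive and CD8 against CD4 memory cells, after libraries alone called 0 and 0, and 198 and 159 of all genes. RhDBCb alone called 0 and 0 there, and 268 and 193 of all genes. CD8 naive cells hold 1 library in both of these fits, so contrasts with them are left out. Between CD8 and CD4 memory cells DESeq2, RhM22 alone and a fit lacking RhDBCb before treatment each called 4. Of all genes these called 2065, 1284 and 1387. Between CD8 and CD4 naive cells, where edgeR called 0, the DESeq2 size factors, the upper quartile factors and no filter each called 1. The DESeq2 test called 4, RhM22 alone 3 and the fit lacking RhDBCb before treatment 2. Of all genes these called 504, 503, 538, 1054, 646 and 456, in the same order, against 499 in the main fit. The difference between lineages lost its 1 call with upper quartile factors, without the before libraries of RhDBCb and in RhM22 alone (0 each). Of all genes these called 9, 35 and 86. DESeq2 called 2 members for the overall change and 3 for RhM22, RhM22 alone called 1, and RhDBCb alone 0. Of all genes these called 177, 248, 60 and 1. The fits of 1 animal were chosen after seeing the data.

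With 1 library left out, members called ranged from 5 to 12 (CD4 memory against naive), 6 to 13 (CD8 memory against naive), 0 to 3 (CD8 against CD4 naive), 2 to 4 (CD8 against CD4 memory), 0 to 1 (difference between lineages), 3 to 10 (RhDBCb) and 2 to 10 (difference between animals), and stayed at 0 for RhM22, for all subsets and for each subset. All genes called ranged from 1052 to 2188, 1371 to 2658, 316 to 612, 766 to 1392, 0 to 42, 225 to 2188 and 99 to 1314, in the same order up to the difference between animals. The cause of these moves was not tested, but each such fit holds fewer libraries. With 2 animals, 1 draw per time and no untreated animals analysed here, time and treatment cannot be told apart.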

Other observations

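Genes beside glycolysis also separated memory from naive cells. EGLN3, a prolyl hydroxylase that marks hypoxia-inducible factors for degradation, averaged 840 ± 203 CPM in CD4 memory and 132 ± 55.6 CPM in CD4 naive cells (SD, n = 4 each), a log2 fold change of 2.78 (SE 0.19, edgeR adjusted p = 7.15e-06). In CD8 cells it averaged 412 ± 133 CPM in memory (SD, n = 4) and 28.8 ± 15.5 CPM in naive cells (SD, n = 3), a log2 fold change of 3.76 (SE 0.23, edgeR adjusted p = 2.71e-06). Of 8 tested partners and brakes of hypoxia-inducible factors, 1 was higher in CD4 memory cells and 3 in CD8 memory cells, with EPAS1 and MYC beside EGLN3, and none was lower. Of 14 targets of these factors outside glycolysis, 1 was higher and 1 lower in CD4 memory cells, and 3 were higher and 2 lower in CD8 memory cells. Beside both lists, 6.82% of all genes were higher and 4.71% lower in CD4 memory cells, and 9.93% and 6.6% in CD8 memory cells. BNIP3, a mitophagy receptor, was lower in both lineages, by -1.33 in CD4 (SE 0.24, edgeR adjusted p = 0.00306) and -1.90 in CD8 cells (SE 0.26, edgeR adjusted p = 0.000321).

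The pentose phosphate and serine branches take sugar from glycolysis. Of their 12 genes 2 were higher and 1 lower in CD4 memory cells, and 2 higher and 3 lower in CD8 memory cells. Among all genes tested 11.5% were called in CD4 and 16.5% in CD8 cells. RPIA, which makes ribose phosphate for nucleotides, averaged 14.2 ± 1.13 CPM in CD4 memory and 34 ± 7.29 CPM in CD4 naive cells (SD, n = 4 each), a log2 fold change of -1.25 (SE 0.21, edgeR adjusted p = 0.00192), and -1.60 in CD8 cells (SE 0.23, edgeR adjusted p = 0.000427). Of 11 glycogen genes 1 was lower in CD4 memory cells and 1 higher in CD8 memory cells, beside the same shares of all genes. After treatment in RhDBCb NDRG1, a hypoxia-responsive gene, was higher by 1.44 (SE 0.20, edgeR adjusted p = 0.0014) and BNIP3 by 1.12 (SE 0.26, edgeR adjusted p = 0.0173), and both changes differed in RhM22, by -1.59 (SE 0.26, edgeR adjusted p = 0.00749) and -1.41 (SE 0.35, edgeR adjusted p = 0.0387).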
